A study of Mus musculus with 6 samples.

Results

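Beta-defensins and keratin-associated proteins are 2 families of small, cysteine-rich proteins typical of epithelia rather than of brain. Their genes were followed in the frontal cortex of mice treated with the histone deacetylase inhibitor SAHA. The members were chosen by gene symbol, as every gene whose symbol starts with Defb or Krtap and a digit. This gave 84 of the 19938 genes on the array, 40 of them Defb and 44 Krtap. The measured value in this rule was the mean signal over the 6 arrays, which selects the brightest probe set of a gene. Each of the 84 had 1 probe set that pairs with its symbol alone, so this step selected nothing among them. The rule does not refer to the difference between the groups, although the families were taken up with earlier results of these arrays known. A further 16 probe sets name a member together with other genes and are described apart. They name 21 member symbols, 7 of which have no probe set of their own.

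Beta-defensins are secreted antimicrobial peptides held together by disulphide bonds between conserved cysteines. Some, such as Defb1 and Defb14, are made by skin and mucosal epithelia, and many others are known mainly from the epididymis, where they coat sperm. Keratin-associated proteins form the matrix around the keratin filaments of the hair shaft and are made by the follicle. They are grouped by composition into high sulphur, ultra-high sulphur and high glycine-tyrosine proteins. Both families lie in clusters of neighbouring genes. Histone deacetylase inhibitors raise acetylation of chromatin and can switch on genes that a cell type keeps silent, so families of this kind serve to read derepression. In epithelial cells in culture such inhibitors are known to raise some antimicrobial peptides.

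All mice were wild type animals of the 129S6/SvEv strain, 8 to 12 weeks old. The 3 libraries of the SAHA group came from mice injected with 20 mg per kg SAHA (vorinostat) over 21 days, and the 3 control libraries from mice injected with vehicle, called saline in the sample titles. The cortex was collected 1 day later than the final dose. Frontal cortex RNA was amplified and hybridised to whole-transcript arrays, 1 per library, and their number limits the precision. The labels do not say that each library came from a different mouse, so the spread behind each p-value may be that of technical repeats rather than of animals. In such tissue RNA, fewer expressing cells and less RNA per cell cannot be told apart.

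The tissue carried its defining markers. Snap25 was at a log2 signal of 12.89 to 13.01 over the 6 libraries, Slc17a7 at 10.37 to 10.57 and Gad1 at 9.94 to 10.05. Saline replicate 1 stood apart, with the X-linked transcript Xist at 10.91 against 4.63 to 4.88 elsewhere, and with Y-linked Uty at 8.19 in the same library. SAHA replicate 3 stood apart with Uty at 6.74 against 7.93 to 8.24 elsewhere, and with Xist low. The main counts and medians are also given without these libraries. Saline replicate 1 also bears on the members: it was the lowest of the 6 libraries for 40 of 84 (47.6%), and for 27.3% of other genes of the same signal.

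The stretches before the transcription start carry a feature that many members share. RefSeq (GRCm38.p6) gave a promoter for 68 of the 84 members. Sequences are given for 4 neighbouring ultra-high sulphur genes whose groups did not overlap and for 3 beta-defensins. Krtap5-1 and its neighbour Krtap5-5, whose own probe sets differed in opposite directions, are given too. These genes were picked after their values were seen. Each line holds the 120 bases just before the annotated start, 5′ to 3′ on the gene's strand, and capitals mark the hexamer TATAAA on either strand.
Krtap4-1 (chr11:99628240-99628359, minus strand): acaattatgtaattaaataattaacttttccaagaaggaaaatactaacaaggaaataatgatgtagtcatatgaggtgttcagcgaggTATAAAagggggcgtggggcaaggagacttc
Krtap4-2 (chr11:99635085-99635204, minus strand): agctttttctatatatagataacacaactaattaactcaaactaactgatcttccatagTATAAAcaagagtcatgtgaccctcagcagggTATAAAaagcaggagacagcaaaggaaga
Krtap4-7 (chr11:99644090-99644209, minus strand): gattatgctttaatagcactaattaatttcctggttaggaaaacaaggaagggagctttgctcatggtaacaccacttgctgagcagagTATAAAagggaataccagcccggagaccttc
Krtap4-6 (chr11:99665961-99666080, minus strand): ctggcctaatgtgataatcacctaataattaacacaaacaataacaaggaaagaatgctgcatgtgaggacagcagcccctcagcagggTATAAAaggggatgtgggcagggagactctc
Krtap5-1 (chr7:142297135-142297254, minus strand): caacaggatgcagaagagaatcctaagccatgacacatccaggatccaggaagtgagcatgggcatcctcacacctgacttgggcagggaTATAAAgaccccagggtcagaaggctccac
Krtap5-5 (chr7:142229972-142230091, minus strand): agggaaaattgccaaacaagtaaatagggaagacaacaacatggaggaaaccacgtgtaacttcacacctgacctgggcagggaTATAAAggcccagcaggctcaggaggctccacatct
Defb46 (chr8:19239796-19239915, plus strand): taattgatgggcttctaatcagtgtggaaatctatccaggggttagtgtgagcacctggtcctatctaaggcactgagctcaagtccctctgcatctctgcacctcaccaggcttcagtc
Defb20 (chr2:152476943-152477062, plus strand): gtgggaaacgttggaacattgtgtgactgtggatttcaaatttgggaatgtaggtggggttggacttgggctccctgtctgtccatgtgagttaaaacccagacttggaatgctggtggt
Defb22 (chr2:152490139-152490258, minus strand): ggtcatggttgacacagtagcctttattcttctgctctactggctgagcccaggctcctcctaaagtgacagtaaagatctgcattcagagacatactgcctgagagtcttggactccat

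In Krtap4-1, Krtap4-7 and Krtap4-6 the hexamer begins 31 bases before the start, in Krtap4-2 its nearer copy begins 29 before it, in Krtap5-1 30 and in Krtap5-5 36. The 3 beta-defensin stretches hold none. Over the 250 bases before the start, TATAAA on either strand was found in 31 of 40 Krtap promoters (77.5%), in 5 of 28 Defb promoters (17.9%) and in 12.4% of the 32851 promoters of the table. On the gene's own strand, starting 40 to 20 bases before the start, it was found in 23 Krtap promoters (57.5%), 2 Defb promoters (7.14%) and 1.99% of all. The GC box GGGCGG was in 0 Krtap promoters and 1 Defb promoter, against 32.7% of all promoters. The AP-1 motif TGACTCA was in 5 and 1 (12.5% and 3.57%), against 4.46%. The members' promoters were poor in CG pairs, with a median of 1 in 250 bases where all promoters had 6. The Krtap4 promoters are not copies of each other: pairwise identity in an alignment of 250 bases lay between 52% and 58.9%.

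Most members, but not all, had signals within the range of array background. Probe sets differ in brightness for the same amount of RNA, so signals are used here only to set a member beside genes of like signal, not to rank transcripts. The members had a median log2 signal of 5.47, from 2.96 (Defb10) to 8.95 (Krtap5-3), where all genes had 6.94. Of the 84, 73 lay below the median gene. As a measure of array background, the 1224 receptors of smell, pheromones and bitter taste had library medians of 4.47 to 4.68, and Xist, where low, was at 4.63 to 4.88. The 95th percentile of these receptors lay between 6.17 and 6.45. No library put 59 members above it, and all 6 libraries put 19 members above it, 5 Defb and 14 Krtap. The share of other genes above it was 64.0% to 67.4%.

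Counted against each library's own level, 19 to 21 members lay above it in the saline libraries and 20 to 23 in the SAHA libraries. Krtap4-7, an ultra-high sulphur protein gene, was the 1 member above it in all SAHA and no saline libraries, and 0 members did the reverse. Of the others, 3 were above it in more SAHA than saline libraries (Defb20, Krtap4-6 and Krtap5-2), and 2 in more saline libraries (Defb29 and Defb47). These were picked by their values. Defb29 and Defb47 differed by only -0.018 and 0.0072. The level itself was higher in every SAHA library, at 6.17, 6.26 and 6.30 in saline and at 6.45, 6.35 and 6.39 in SAHA. These counts therefore do not show how far the members' own signals moved. Differences among the 59 members below it in every library are read at signals where RMA values understate true changes.

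Most members had a higher mean in SAHA. The difference, SAHA minus saline, was above 0 for 65 of 84 members (77.4%), where other genes of the same signal gave 67.8% and all genes 52.9%. After adjustment in limma 0 members were called, at a lowest adjusted p of 0.116 (Benjamini-Hochberg), and the share of all genes called was 0.0%. At an unadjusted p under 0.05 in limma, 25 members were higher, or 29.8%, beside 11.9% of all genes and 17% of other genes of the same signal. There were 0 members lower at that level, beside 5.56% of all genes and 3.61% at the same signal. All 3 SAHA values lay above all 3 saline values for 24 members, or 28.6%, beside 13.6% of all genes and 17.3% at the same signal. The reverse held for 0 members, beside 10.4% of all genes and 4.63% at the same signal. From here on, counts and shares of genes that did not overlap take in only those with SAHA higher, unless stated. Without both libraries that stood apart, 30 members (35.7%) were higher without overlap. The shares were 22.5% of all genes and 29.1% at the same signal, since smaller groups separate more often. In that setting 6 members were lower without overlap. At an unadjusted p under 0.05 in limma 1 was lower there, beside 2.96% of all genes. Without saline replicate 1, 15 members were higher at an unadjusted p under 0.05 in limma, beside 8.65% of all genes and 12.6% at the same signal.

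**Figure D1:**
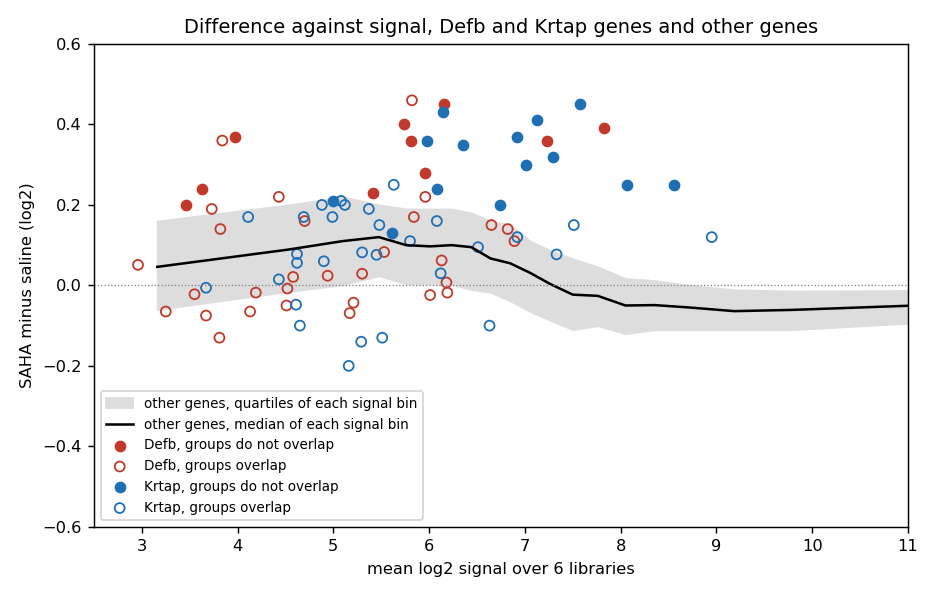
Difference SAHA minus saline (log2) of each member against its mean log2 signal over 6 libraries, with Defb in red and Krtap in blue. Filled points are the 24 members whose SAHA values all lay above all saline values. The black line joins the medians of other genes in 20 bins of signal and the grey band their quartiles. Many filled points lie above the band, and over the brightest bins shown the line falls below 0.

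The 40 beta-defensin genes had a median difference of 0.12, where all genes had 0.011 and other genes of the same signal 0.076. Of them, 28 were higher in SAHA (70.0%, against 68.7% at the same signal). At an unadjusted p under 0.05 in limma 12 were higher, and for 10 the groups did not overlap (25%, against 16.7% at the same signal). Library medians, relative to each gene's saline mean, were -0.069, 0.039 and 0.039 in saline and 0.12, 0.087 and 0.15 in SAHA. Other genes of the same signal were at -0.027, 0.0049 and 0.020 and at 0.099, 0.043 and 0.077 in turn. In both sets saline replicate 1 was lowest and the 3 SAHA libraries were above the saline ones, with SAHA replicate 3 highest for the Defb genes and SAHA replicate 1 for the others. Without saline replicate 1 the Defb median was 0.087 beside 0.062. Without both saline replicate 1 and SAHA replicate 3 it was 0.050 beside 0.059, and so no longer above that of the same signal.

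Defb46, a beta-defensin gene of the large cluster on chromosome 8, was at 7.63, 7.73 and 7.55 in saline and at 8.10, 7.95 and 8.04 in SAHA. The groups did not overlap, and the lowest SAHA value exceeded the highest saline value by more than either group's SD. The difference was 0.39 (SE 0.072), at an adjusted p of 0.120 in limma. Defb25, of the cluster on chromosome 2, was at 6.99, 7.12 and 7.05 in saline and at 7.42, 7.36 and 7.44 in SAHA, again without overlap. It differed by 0.36 (SE 0.061), at an adjusted p of 0.116 in limma. These 2 lay above the background level in every library. Defb20, of the same cluster as Defb25, was at 5.66, 6.13 and 5.99 and at 6.40, 6.33 and 6.40. Its difference of 0.45 (SE 0.11) rests in part on its low value in saline replicate 1. Defb35 was at 5.75, 5.59 and 5.56 and at 5.86, 6.15 and 5.98, a difference of 0.36 (SE 0.090). Its sequence is close enough to Defb12 for them to share a further probe set, where the groups overlapped.

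The best known epithelial members lay lower on the array. Defb14, the counterpart of the inducible human beta-defensin of skin, was at 3.63, 3.88 and 3.84 in saline and at 4.41, 4.01 and 4.06 in SAHA. SAHA replicate 1 was the highest and the groups did not overlap, with a difference of 0.37 (SE 0.12) and an adjusted p of 0.188 in limma. Defb1, made constitutively by many epithelia, was at 5.14, 5.36 and 5.39 and at 5.62, 5.50 and 5.44. Its difference of 0.23 (SE 0.086) stands beside 0.12 for genes of its signal, at an adjusted p of 0.244 in limma. Both stayed below the background level in every library. Defb4 overlapped between the groups, at 3.47, 3.56 and 4.09 in saline and at 3.47, 3.87 and 3.56 in SAHA.

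Other beta-defensins overlapped between the groups. Defb11 was at 4.67, 4.29 and 4.63 in saline and at 4.52, 4.26 and 4.78 in SAHA, with a 95% confidence interval of the difference of -0.35 to 0.33. Defb22, a neighbour of Defb20, was at 4.11, 4.27 and 4.23 and at 4.28, 4.28 and 4.0. The dimmest member, Defb10, ranged from 2.63 to 3.42 within saline alone. Of the beta-defensins that were lower, Defb37 had the smallest p, with a difference of -0.13 (SE 0.076) and overlapping groups. The pseudogene Defb44-ps, which makes no protein, differed by -0.065 (SE 0.072). Defb45, the next brightest after Defb46 and Defb25, was at 6.85, 6.75 and 6.89 and at 6.93, 7.01 and 6.87, with overlap and a difference of 0.11 (SE 0.067).

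By cluster, the 21 Defb genes of chromosome 8 had a median difference of 0.19 beside 0.073 for genes of the same signal, and 6 (28.6%) did not overlap, beside 15.3%. Without saline replicate 1 this median was 0.089 beside 0.060. The 11 of chromosome 2 had 0.11 beside 0.083, and 3 (27.3%) did not overlap, beside 20.3%. The 5 of chromosome 14 had 0.029 beside 0.088 and the 3 of chromosome 1 had -0.022 beside 0.046. In these 0 and 1 did not overlap, beside 19% and 9.47% at the same signal. Over all genes the share without overlap was 13.6%. Defb20 and Defb22 lie in the same cluster and had 0.45 and -0.018. Differences between clusters and between neighbours were not tested.

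**Figure D2:**
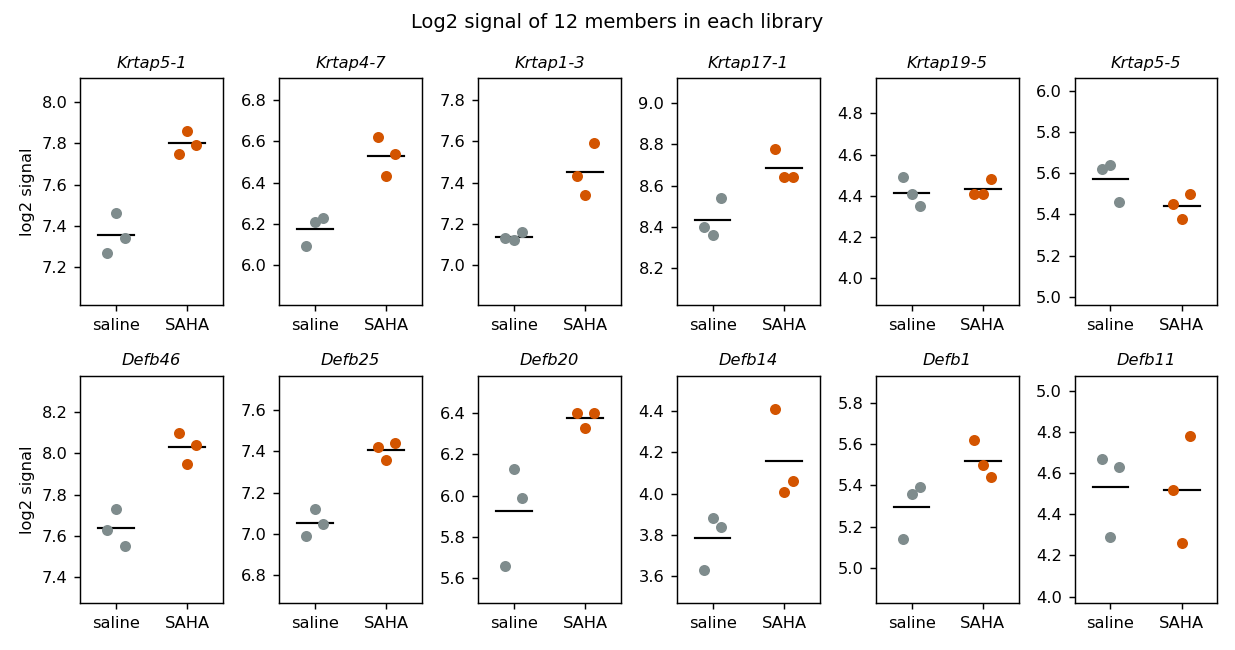
Log2 signal of 12 members in each saline (grey) and SAHA (orange) library, with the group mean as a bar and axes of equal span. Krtap5-1, Krtap4-7, Krtap1-3, Krtap17-1, Defb46, Defb25, Defb20, Defb14 and Defb1 do not overlap between groups, while Krtap19-5, Krtap5-5 and Defb11 do.

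The 44 keratin-associated protein genes had a median difference of 0.15, where other genes of the same signal had 0.073. Of them, 37 were higher in SAHA (84.1%, against 67.0% at the same signal). At an unadjusted p under 0.05 in limma 13 were higher (29.5%, against 17.4% at the same signal and 11.9% of all genes). For 14 the groups did not overlap (31.8%, against 17.9% at the same signal). They are described by class of protein, and the classes were formed from general knowledge of the family after the values had been seen. The 12 ultra-high sulphur genes (Krtap4, Krtap5, Krtap9 and Krtap17) had a median of 0.24 beside 0.039, and 8 (66.7%) did not overlap, beside 16.1% at the same signal. The 13 high glycine-tyrosine genes (Krtap6, Krtap7, Krtap8, Krtap19 and Krtap21) had 0.077 beside 0.087, and 2 (15.4%) did not overlap, beside 17.6%. The other 19 had 0.15 beside 0.084, and 4 (21.1%) did not overlap, beside 19.3%. Over all genes 13.6% did not. These classes were not compared by a test, and their members share sequence.

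Among the ultra-high sulphur genes, Krtap5-1 was at 7.27, 7.46 and 7.34 in saline and at 7.75, 7.86 and 7.79 in SAHA. It had the smallest p of all members, with a difference of 0.45 (SE 0.070, 95% confidence interval 0.28 to 0.61) and an adjusted p of 0.116 in limma. With a variance trend in limma its adjusted p was 0.0337. Krtap4-7 was at 6.09, 6.21 and 6.23 and at 6.62, 6.43 and 6.54, a difference of 0.35 (SE 0.073). Its neighbour Krtap4-1 was at 6.64, 6.80 and 6.76 and at 7.07, 7.27 and 6.97, a difference of 0.37 (SE 0.090). All 5 Krtap4 genes were higher at an unadjusted p under 0.05 in limma, and 4 of the 5 did not overlap, where other genes of the same signal gave 19.7% and 21.4%. Their adjusted p was 0.120 at the lowest. Probes of near-identical Krtap4 genes can take up each other's RNA, so these 5 are not independent. A probe set that names 11 genes, 6 of them Krtap4, was at 7.89, 8.03 and 8.11 and at 8.42, 8.02 and 8.47, and its groups overlapped.

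The brightest members were of the same class. Krtap17-1 was at 8.40, 8.36 and 8.54 in saline and at 8.78, 8.64 and 8.64 in SAHA, a difference of 0.25 (SE 0.074) where genes of its signal had -0.055. Krtap9-3 was at 7.87, 7.85 and 8.11 and at 8.22, 8.14 and 8.21, a difference of 0.25 (SE 0.082) where genes of its signal had -0.050. Neither overlapped between groups, at adjusted p of 0.172 and 0.207 in limma. Krtap5-3 had the highest signal and overlapped, at 8.69, 8.93 and 9.05 and at 8.90, 8.94 and 9.19. Its difference of 0.12 was 0.024 without saline replicate 1 and -0.066 without both libraries that stood apart. Krtap5-5 went the other way, at 5.62, 5.64 and 5.46 and at 5.45, 5.38 and 5.50, with a difference of -0.13 (SE 0.072) and overlap. Within the Krtap5 genes, read on their own probe sets, Krtap5-1 and Krtap5-2 did not overlap, while Krtap5-3, Krtap5-4 and Krtap5-5 did. Probe sets that name Krtap5-5 together with other genes were higher in SAHA without overlap, by 0.26, 0.23 and 0.23. The probe set that names Krtap5-3 and Krtap5-2 was higher by 0.16, also without overlap. Such shared probe sets cannot be assigned to 1 gene. Whether these neighbours differ from each other was not tested.

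The count of ultra-high sulphur genes higher at an unadjusted p under 0.05 in limma was 8 of 12 over all libraries. Other genes of the same signal gave 14.3% and all genes 11.9%. Leaving out saline replicate 1 gave 5 of 12, beside 8.65% of all genes. Leaving out SAHA replicate 1 also gave 5, beside 9.13% of all genes. Library medians of the class, relative to each gene's saline mean, were -0.079, 0.035 and 0.039 in saline and 0.27, 0.19 and 0.27 in SAHA. For other genes of the same signal the saline libraries ranged from -0.0090 to 0.0059 and the SAHA libraries from 0.027 to 0.047. So the 3 SAHA libraries lay above the 3 saline libraries, and the distance to other genes was wider than for the beta-defensins. Without both saline replicate 1 and SAHA replicate 3 the median was 0.21 beside 0.028.

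**Figure D3:**
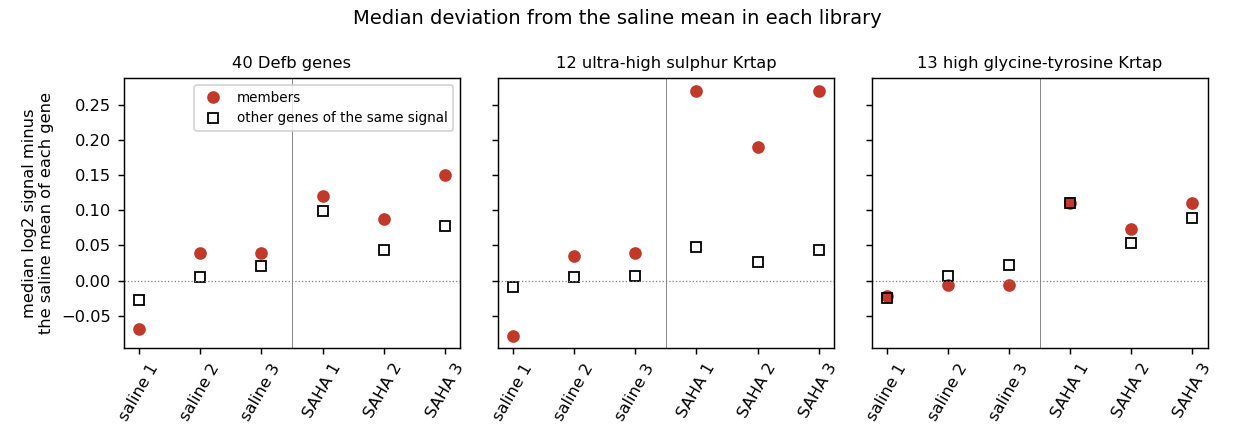
Median over the genes of a group of the log2 signal minus each gene's saline mean, by library, for 40 Defb, 12 ultra-high sulphur and 13 high glycine-tyrosine Krtap genes. Red points are the members and open squares other genes of the same signal. The ultra-high sulphur points reach 0.19 to 0.27 in SAHA, and the high glycine-tyrosine points reach 0.073 to 0.11, with squares at 0.054 to 0.11.

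Of the high sulphur and unclassed genes, Krtap1-3 was at 7.13, 7.12 and 7.16 in saline and at 7.43, 7.34 and 7.59 in SAHA. The saline values lay close together, the groups did not overlap, and the difference was 0.32 (SE 0.075) at an adjusted p of 0.131 in limma. Krtap31-1 had the smallest p among lower members, at 5.45, 5.06 and 5.27 and at 5.07, 5.14 and 4.96, with overlap and a difference of -0.20 (SE 0.10). Saline replicate 1 was its highest value, and the difference was -0.11 without that library and -0.057 without SAHA replicate 3 as well. Of the high glycine-tyrosine genes, Krtap19-5 was at 4.49, 4.41 and 4.35 and at 4.41, 4.41 and 4.48, with a 95% confidence interval of the difference of -0.13 to 0.16. Krtap19-1 was at 3.77, 3.74 and 3.52 and at 3.73, 3.49 and 3.79, with no separation of the groups. Krtap6-1 ranged from 3.84 to 4.19 in saline and from 4.10 to 4.31 in SAHA.

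All 16 probe sets that name members together with other genes were higher in SAHA, by 0.08 to 0.44 with a median of 0.27, and for 10 the groups did not overlap. Single-gene probe sets of the same signal had -0.025, and 8.12% of them did not overlap, beside 13.6% of all genes. Several of them repeat the same genes. The 2 with the greatest differences, at 0.42 and 0.44, name Krtap4-13 with the same 2 predicted genes, and 4 others name Krtap2-4, at 0.28 to 0.32. They cannot be counted as separate genes and entered no test. Their mean signals were 5.56 to 9.91.

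Members with and without the TATAAA hexamer in the 250 bases before the start were also set side by side. The median difference was 0.17 over the 31 Krtap genes with it and 0.056 over the 9 without it. The groups did not overlap for 12 of the 31 and 0 of the 9, beside 18.7% and 14.8% of other genes of the same signal. Of the 12, 8 were ultra-high sulphur genes, 10 of which hold the hexamer, so this split and the split by class share many genes. Within the classes, medians with and without it were 0.25 and 0.12 over 10 and 2 ultra-high sulphur genes. They were 0.12 and 0.036 over 8 and 4 high glycine-tyrosine genes, and 0.15 and -0.048 over 13 and 3 other genes. The sets without it are small. Without both libraries that stood apart the medians over the 31 and the 9 Krtap genes were 0.11 and 0.012. The mean signals of the 31 and the 9 were alike, with medians of 5.61 and 5.29, and other genes of these signals had 0.078 and 0.060. Among Defb genes the medians were 0.28 over 5 with it and 0.024 over 23 without it, beside 0.072 and 0.083 at the same signal. But 1 of the 5 and 2 of the 23 did not overlap, beside 16.4% and 18.4% at the same signal. Other genes were split in this way only between log2 signals of 4.61 and 6.19, the quartiles of member signal. There 621 with the hexamer and 2913 without it both had a median of 0.11. Several of the 12 Krtap genes with it and without overlap were brighter, such as Krtap5-1 at 7.58 and Krtap17-1 at 8.56. Other genes of such signals were not split by the hexamer. A match is a description of letters, and this contrast, noted after the values were seen, was not tested.

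**Figure D4:**
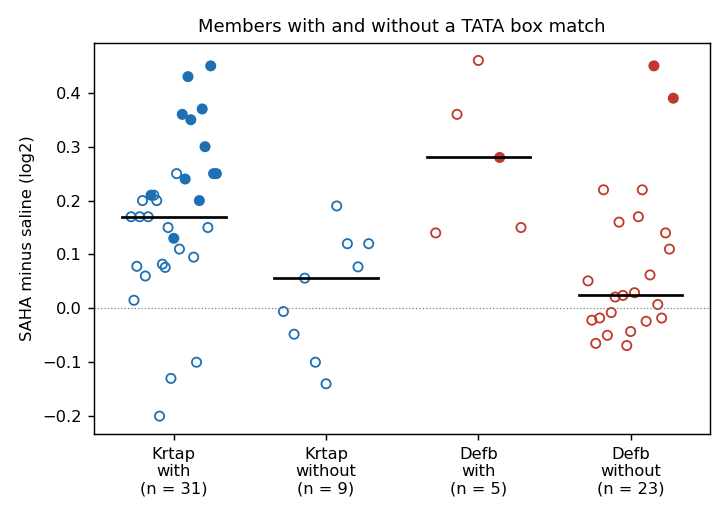
Difference SAHA minus saline (log2) of the 68 members with a RefSeq promoter, split by family and by whether the 250 bases before the start hold the TATA box hexamer on either strand. Bars are medians and filled points are members whose groups did not overlap. The Krtap medians are 0.17 with it and 0.056 without it.

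The scaling of the arrays set the size of the differences but less so their distance from genes of like signal. After quantile normalization the Defb median was 0.061 and the Krtap median 0.079, where genes of the same signal had 0.0012 and 0.0027. After cyclic loess they were 0.064 and 0.080, beside 0.0010 and 0.0040. The ultra-high sulphur median was 0.22 and 0.23 in these settings. Under either, 52 members were higher, and 17 were higher and 3 lower at an unadjusted p under 0.05 in limma, where 7.45% and 7.44% of other genes of the same signal were higher. Over all genes, 6.72% were then higher and 6.44% lower at that level with quantile normalization, where the deposited values gave 11.9% and 5.56%. With median centring 19 members were higher and 1 lower, beside 7.81% and 10.2% of all genes.

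**Figure D5:**
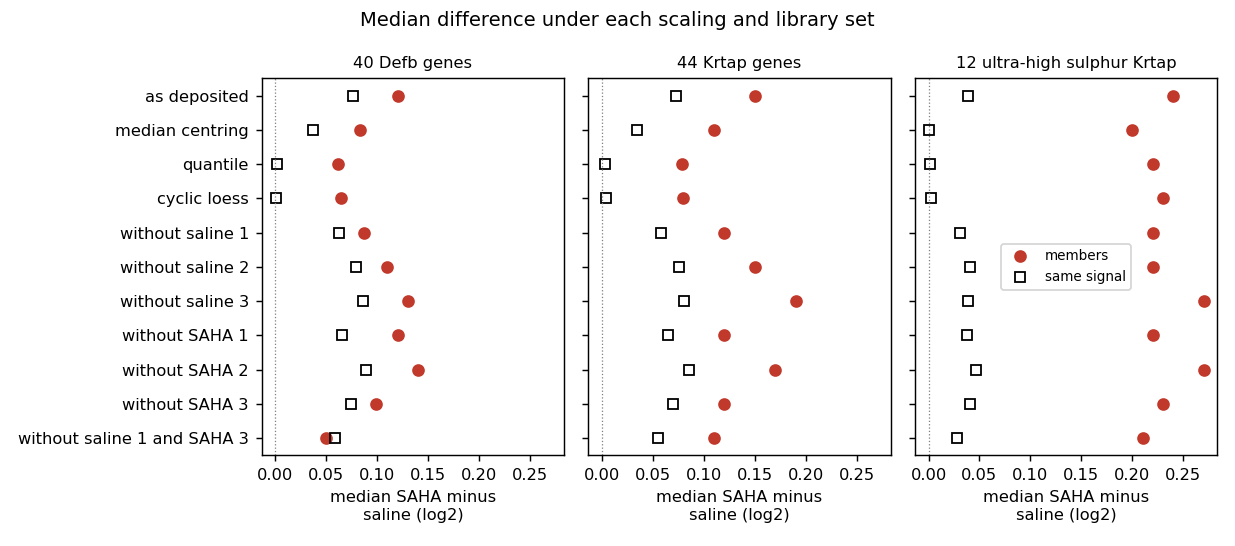
Median difference SAHA minus saline (log2) under each scaling of the arrays and without each library, for Defb, all Krtap and ultra-high sulphur Krtap genes (red points), beside other genes of the same signal (open squares). The red points lie to the right of the squares, apart from the Defb genes without saline replicate 1 and SAHA replicate 3, at 0.050 against 0.059.

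The partners of keratin-associated proteins in the hair shaft were read from a list of hair keratins, trichohyalin-like proteins and follicle regulators. Of 36 listed genes 33 were measured, and 32 of them (97.0%) were higher in SAHA, beside 72.4% of genes of the same signal. The median difference was 0.17 beside 0.090 for genes of the same signal. At an unadjusted p under 0.05 in limma 11 (33.3%) were higher and 0 lower, beside 20.8% higher at the same signal and 11.9% of all genes, and 0 passed over all genes. Without both libraries that stood apart 7 were higher at that level, beside 13.2%, and the median was 0.16. Tchhl1, a trichohyalin-like protein, had the smallest p, at 7.03, 7.04 and 7.04 in saline and at 7.27, 7.36 and 7.41 in SAHA. Of 23 receptors, inducers and other peptides of antimicrobial defence, 5 (21.7%) were higher and 1 lower at that level, beside 20.0% higher at the same signal. Of these 0 passed over all genes, and the median was 0.069 beside 0.091. S100a8, a calprotectin subunit of neutrophils, had the smallest p, at 4.72, 4.61 and 4.96 and at 5.05, 5.29 and 5.34.

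Markers of epithelia that make these families elsewhere, and markers of neutrophils, were measured too. Of 9 markers of skin and hair epithelium, 7 (77.8%) were higher, beside 70.6% at the same signal, with a median difference of 0.023 beside 0.084. At an unadjusted p under 0.05 in limma 2 (22.2%) were higher, beside 19.4%, and 0 were without saline replicate 1. The desmosomal cadherin Dsg3 had the smallest p, at 4.50, 4.89 and 4.75 in saline and at 4.95, 4.97 and 4.94 in SAHA, a difference of 0.24 without overlap. Krt1, a keratin of the upper epidermis, differed by 0.22, with overlap. The keratinocyte keratin Krt14 was at 6.31 to 6.54 in saline and 6.22 to 6.54 in SAHA, and Trp63, its regulator, at 6.33 to 6.41 and 6.34 to 6.44. Of 6 measured epididymis markers 5 (83.3%) were higher, beside 72.2% at the same signal, with a median of 0.15 beside 0.088. The groups did not overlap for 2, beside 16.3% at the same signal. Without both libraries that stood apart this median was 0.055 beside 0.071. The lipocalin Lcn8 had the smallest p, at 5.29, 5.27 and 5.09 and at 5.61, 5.74 and 5.82, and Adam7 was at 4.08 to 4.19 and 4.11 to 4.18. All 5 neutrophil markers were higher, beside 75.6% of genes at the same signal. Their median was 0.11 beside 0.10, from 0.0068 for Ngp to 0.46 for S100a8. The part of such cells in the members' differences was not tested.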

How the data were processed

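Members and gene lists were chosen with earlier results of these data known. Per the submitters' processing notes the authors used Affymetrix Expression Console and RMA, and they deposited log2 values for 35556 probe sets, from 1.43 to 14.2. RMA subtracts background, equalises the arrays and combines the probes of a set, which compresses differences at low signal. The platform annotation names 1 gene for 21789 probe sets, several genes for 1621 and no gene for 12146. All 84 members were found in the RefSeq gene table (GRCm38.p6) by Entrez identifier under the same symbol. Its chromosomes are used only to say which members neighbour each other.

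SAHA was compared with saline by lmFit and eBayes of limma 3.58.1 (R 4.3.3) over 19938 genes, two-sided, with Benjamini-Hochberg adjustment and a threshold of 0.05. The fit was tested on simulated data. Errors and 95% confidence intervals use the moderated variance. For genes of the same signal, the other genes were divided into 20 bins of equal size by mean signal, and each bin's median or share was averaged over the members in it. No set test was run. Named members are, per family, the 4 higher and 2 lower of smallest p, the 3 brightest, the 2 dimmest and the 2 nearest to no difference in the dimmer part, with Defb1 and Defb14. Defb4, Krtap4-2, Krtap4-6 and others outside this rule were named after their values were seen. Outside the families, a list's gene of smallest p is named, and Krt1, Krt14, Trp63, Adam7, Ngp and the cortex markers were added after their values were seen. Alternatives were median centring, quantile and cyclic loess normalization, the mean of probe sets, every probe set, a filter at the median signal, trended variance, array weights, a replicate block, an adjusted threshold of 0.1 and libraries left out. For gene lists, clusters and promoter splits the libraries left out were chosen after seeing the data. Promoters were aligned with Biopython 1.88. Figures used matplotlib 3.10.9.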

Additional observations from a re-analysis of the deposited data

How the results depend on the processing

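Scaling set how large the members' differences were. The groups did not overlap, with SAHA higher, for 15 members after cyclic loess and 15 after quantile normalization, against 24 as deposited, beside 8.57% and 8.46% at the same signal. The Defb median was 0.064 and 0.061 in these settings and the Krtap median 0.08 and 0.079. The number of members past the adjusted threshold in limma was 0, against 1 with a variance trend (Krtap5-1), 2 with a robust trend (Defb46 and Krtap5-1) and 3 when only genes not below the median signal were fitted (Defb25, Defb46 and Krtap5-1). Over all genes these settings called 28 (0.14%), 31 (0.155%) and 27 (0.271%). That filter keeps 11 members (2 Defb and 9 Krtap) and fewer tests. Among these 11, 8 were higher at an unadjusted p under 0.05 in limma (5.89% of genes, 9.11% at the same signal). The groups did not overlap for 8 (7.13% and 9.71%). The filter uses the mean over all 6 libraries, SAHA included, so it favours members that are high in SAHA. Krtap10-10 and Krtap10-4, both among the 8 without overlap, had saline means of 6.92 and 6.87, below the median gene's 6.94. Their mean signals were 7.13 and 7.01. The Krtap median was 0.25, at a distance of 0.27 from genes of the same signal. The median of the 2 Defb genes, Defb25 and Defb46, was 0.37, at a distance of 0.39, and does not stand for the family. Without both saline replicate 1 and SAHA replicate 3 the Defb median was 0.05 and its distance from genes of the same signal -0.0096, the reverse of 0.046 over all libraries. The cause was not tested.

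With single libraries left out, 15 to 29 members were higher at an unadjusted p under 0.05, with 15 without saline replicate 1, beside 8.65% to 12.8% of all genes and 12.6% to 18.6% at the same signal. The groups did not overlap, with SAHA higher, for 26 to 38, with 38 without SAHA replicate 2. Beside them were 17.1% to 22.0% of all genes and 21.9% to 28.4% at the same signal, since fewer samples separate more often. With SAHA lower, the groups did not overlap for 0 to 3 members. The Defb median was 0.087 to 0.14 and the Krtap median 0.12 to 0.19. Of 24 named members 18 kept the sign of their difference under every alternative run, and 6 near 0 or of wide error did not (Defb10, Defb11, Defb22, Krtap19-1, Krtap19-5 and Krtap5-3). Many of the 24 were picked from these data for a small p or a difference near 0. These counts therefore follow in part from that choice. With the replicate number as a block 0 members passed, 24 were higher at an unadjusted p under 0.05, and the lowest adjusted p in limma was 0.203. The numbers did not pair the samples, with correlations of deviations of -0.105, -0.0792 and 0.015. Signals near array background limit what can be read of the dim members.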

Other observations

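Most small proline-rich and late cornified envelope genes, of epithelial families that lie in clusters, also had higher means in SAHA. The 13 small proline-rich genes, which build the cornified envelope of skin, had a median difference of 0.25 beside 0.089 for genes of the same signal. Of them 11 (84.6%) were higher, beside 71.7% at the same signal. At an unadjusted p under 0.05 in limma 7 (53.8%) were higher, and 7 did not overlap, beside 18.3% at the same signal for both measures. Without saline replicate 1 and SAHA replicate 3, a choice made after seeing the data, 2 were higher at that level, beside 13.1%, and the median was 0.19 beside 0.067. The 19 late cornified envelope genes had a median of 0.18 beside 0.077, with 5 (26.3%) higher at that level, beside 17.4%, and 3 (15.8%) not overlapping, beside 18.0%. Without those libraries 2 were higher at that level, beside 11.9%, and the median was 0.11 beside 0.060. In both families 0 genes were lower at that level. The 2 measured alpha-defensin genes differed by -0.04 and 0.27, with a median of 0.12 beside 0.074. Of these, 0 were higher at that level and 0 did not overlap.

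Families of sensory receptors, which are also quiet in cortex, gave smaller distances between medians. The 1027 olfactory receptors had a median of 0.11 beside 0.082, the 163 vomeronasal receptors 0.051 beside 0.068 and the 34 taste receptors 0.080 beside 0.079. The 5 caseins, milk proteins encoded in a cluster, had -0.026 beside 0.091. Differences between these families were not tested.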
